A study of Mus musculus with 19 samples.

Results

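The granule cells of the dentate gyrus were followed in whole hippocampal RNA through 7 marker genes, Prox1, C1ql2, Dsp, Lct, Tdo2, Calb1 and Stxbp6. The genes were chosen by name, as known granule cell genes, but with earlier results of these data known. They make up 7 of the 35842 genes in the count table. RNA was sequenced from 19 female mice on a C57Bl6/J background, each mouse being 1 library from the hippocampus of 1 hemisphere. The groups held 5 mice each (WT, A2A and APP/PS1), except the APP/PS1 A2A group, which held 4. APP/PS1 mice (APPswe/PS1dE9) are heterozygous for transgenes with familial Alzheimer's disease mutations, among them a chimeric mouse/human APP, and develop amyloid plaques. A2A mice carry an optimized cDNA of the mouse adenosine A2A receptor behind a Tet-responsive element, and APP/PS1 A2A mice carry both. All 4 groups, WT included, received the vector AAV2/5-CBA-tTA into CA1 of the dorsal hippocampus at 3 months and were sampled at 6 months. The vector makes the tTA protein that switches on the A2A transgene. The injection was aimed at CA1, and no group lacked it. The text of the study does not state how far granule cells took up the vector.

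Granule cells receive the main cortical input to the hippocampus through the perforant path and send their axons, the mossy fibres, to mossy cells of the hilus and to CA3 pyramidal neurons. They are the most densely packed neurons of the hippocampus, and new ones are added in adulthood. Prox1 is a homeobox transcription factor needed to make and keep granule cell identity. C1ql2 is a secreted C1q-like protein of the mossy fibre synapse. Stxbp6 (amisyn) binds syntaxin in the machinery of vesicle release, and Calb1 (calbindin) is a calcium buffer that is abundant in granule cells and in part of the CA1 pyramidal cells. Dsp (desmoplakin) anchors intermediate filaments at desmosomes. Lct (lactase) and Tdo2 (tryptophan dioxygenase, the first enzyme of the kynurenine pathway) are enzymes best known from intestine and liver, and serve in the mouse hippocampus as granule cell markers. In whole tissue, fewer granule cells and less of a transcript per granule cell cannot be told apart.

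None of the 7 markers passed the test between genotypes in any of 5 comparisons, with edgeR, DESeq2 or limma-voom. They differed between single mice of 1 genotype. The 7 genes were low in the same few animals, at least 1 in each group, and their spread inside groups was larger than that of most genes. The 7 genes followed each other over the 19 mice, with Pearson's r between 0.582 and 0.956 over the 21 pairs.

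The libraries held between 21305902 and 53717373 counts (median 35891080), and 18529 genes had enough counts for a test. App and Prnp checked the APP/PS1 labels. App was at 1381 to 1920 CPM (counts scaled to the size of the library) in the 10 mice without the APP/PS1 transgenes and at 3282 to 4499 CPM in the 9 mice with them. Prnp, whose mouse promoter and part of whose transcript the APP/PS1 transgenes carry, was at 919 to 1172 CPM and 2367 to 3434 CPM in the same mice. Adora2a, the A2A receptor gene, was at 1.09 to 1.83 CPM in WT and APP/PS1 mice. It ranged from 0.865 to 9.35 CPM in A2A mice and from 1.27 to 10.3 CPM in APP/PS1 A2A mice. As the transgene's cDNA differs in sequence from the gene, how far Adora2a counts include its reads was not tested, and they do not check the A2A labels. Choroid plexus genes, which mark tissue of the ventricle and not of the hippocampus, summed to between 61.8 and 10480 CPM over the 19 mice. The labels name no batch.

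All 7 markers were well above the detection limit in every mouse. The lowest count of any marker in any mouse was 112 reads, for Tdo2, at which counting error alone is 9.45% of the value. For the other 6 markers the lowest count was 699 or more and the counting error 3.78% or less. Such errors cover counting only. Per kilobase of exon sequence, Stxbp6, C1ql2 and Calb1 had the highest levels in WT mice, at 28.9 ± 9.58, 27.1 ± 11.2 and 26.8 ± 6.76 CPM per kilobase (mean ± SD, n = 5). These 3 levels differed by less than their SD. Prox1 stood at 14.5 ± 4.77, Lct at 7.38 ± 3.03, Dsp at 6.69 ± 2.44 and Tdo2 at 2.31 ± 0.859 CPM per kilobase. Lct and Dsp differed by less than their SD, and each other step in this order was larger than the SD of the lower gene.

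The start regions of 6 markers were taken from RefSeq on GRCm38.p6, as 300 bases that run from 250 before to 50 after an annotated start. Those of Prox1, Stxbp6 and C1ql2, among which lay the closest pairs over mice, and of Tdo2 are given in full, so that start regions of genes that varied together can be set side by side, with matches to the E-box CANNTG on either strand in capitals. E-boxes are the motif of basic helix-loop-helix factors such as NeuroD proteins, which act in granule cell development.
Prox1 (chr1:190170778-190171077, minus strand): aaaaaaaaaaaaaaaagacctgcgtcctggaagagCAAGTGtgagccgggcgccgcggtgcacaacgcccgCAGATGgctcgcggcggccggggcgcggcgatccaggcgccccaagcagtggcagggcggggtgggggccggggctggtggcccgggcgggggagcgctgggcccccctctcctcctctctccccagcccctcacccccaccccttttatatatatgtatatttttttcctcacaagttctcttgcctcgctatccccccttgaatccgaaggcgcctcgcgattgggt
Stxbp6 (chr12:45074434-45074733, minus strand): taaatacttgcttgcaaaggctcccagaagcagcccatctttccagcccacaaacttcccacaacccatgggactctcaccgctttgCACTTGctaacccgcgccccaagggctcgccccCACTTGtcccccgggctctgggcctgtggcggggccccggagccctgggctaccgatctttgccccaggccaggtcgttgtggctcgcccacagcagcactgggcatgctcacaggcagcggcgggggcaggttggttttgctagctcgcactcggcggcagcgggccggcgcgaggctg
C1ql2 (chr1:120340332-120340631, plus strand): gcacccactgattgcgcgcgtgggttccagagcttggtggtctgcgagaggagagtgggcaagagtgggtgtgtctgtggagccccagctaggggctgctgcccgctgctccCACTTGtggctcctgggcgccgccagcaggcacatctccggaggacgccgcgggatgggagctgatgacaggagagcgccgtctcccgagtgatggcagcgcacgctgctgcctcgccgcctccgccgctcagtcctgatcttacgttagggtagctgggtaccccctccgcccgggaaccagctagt
Tdo2 (chr3:81975679-81975978, minus strand): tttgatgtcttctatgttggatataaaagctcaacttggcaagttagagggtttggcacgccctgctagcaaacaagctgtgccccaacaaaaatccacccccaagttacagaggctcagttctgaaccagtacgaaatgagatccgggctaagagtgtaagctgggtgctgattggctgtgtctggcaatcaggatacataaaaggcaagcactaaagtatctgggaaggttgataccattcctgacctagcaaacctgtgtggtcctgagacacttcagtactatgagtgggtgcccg

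The Prox1 window held 2 E-boxes, 1 of them the NeuroD-type CAGATG, the Stxbp6 window 2 and the C1ql2 window 1. Lct (2) and Dsp (1) also held them, and a second Prox1 start and Tdo2 held none, so that 5 of the 7 windows had at least 1. Of all 32544 windows of this kind 72.3% held CANNTG and 17.1% held CAGATG on either strand. No marker window held the AP-1 motif TGANTCA or the CRE motif TGACGTCA, which 7.79% and 1.8% of all windows held. The windows also differed in base composition, from 44.7% G and C for Lct and 47.7% for Tdo2 to 67.3% for C1ql2 and 73% for Dsp, with a median of 53% over all windows. None of these motifs was thus present in all 7 windows of the 6 markers, as a description of these letters only. Calb1 was not among the windows.

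Prox1, on chromosome 1 from position 190118035 to 190170714 (mm10, minus strand), was at 164, 91.5, 126, 71.1 and 155 CPM in WT replicates 1 to 5. In the A2A mice it was at 115, 151, 85.5, 122 and 135 CPM, and in APP/PS1 mice at 151, 131, 125, 82.5 and 121 CPM. The 4 APP/PS1 A2A mice had 182, 85.1, 65.2 and 135 CPM. The groups overlapped over most of their range, and the highest and the lowest Prox1 level of the whole study were both in APP/PS1 A2A mice. The group means lay close together, at 121.5 ± 40.05 in WT, 121.6 ± 24.52 in A2A, 121.9 ± 24.82 in APP/PS1 and 116.8 ± 52.53 in APP/PS1 A2A (SD). The antisense transcript Prox1os overlaps Prox1, averaged 5.92 CPM and had r = 0.878 with Prox1 over the 19 mice. Whether the counting used the strand of the reads is not given in the sources used here.

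Stxbp6, on chromosome 12 from 44852484 to 45074709, followed Prox1 closely over mice. In WT it was at 223, 118, 159, 91.8 and 172 CPM, and in A2A at 148, 199, 104, 177 and 162 CPM. In APP/PS1 it was at 184, 179, 171, 94.6 and 141 CPM, and in APP/PS1 A2A at 284, 108, 87.2 and 141 CPM. WT replicate 4, A2A replicate 3, APP/PS1 replicate 4 and APP/PS1 A2A replicate 3 were the lowest mouse of their group, as they were for Prox1. The group means again lay close together, between 152.9 and 157.9 CPM.

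C1ql2, on chromosome 1 from 120340582 to 120343174, had the widest spread within groups. It was at 82.3, 52.5, 42.8, 24.5 and 68.6 CPM in WT and at 76, 97, 24.7, 63.7 and 71.1 CPM in A2A. In APP/PS1 it was at 86, 69.5, 67.5, 24 and 36.1 CPM. In APP/PS1 A2A, replicate 1 had 107 CPM, the highest of all mice, and replicates 2 to 4 had 24.2, 28.3 and 35.8 CPM. Each group reached down to between 24 and 25 CPM, and 3 of the 4 APP/PS1 A2A mice lay under the median of every other group. The mean of 48.9 ± 39.2 CPM in APP/PS1 A2A (SD, n = 4) therefore rested on 1 mouse.

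Calb1, on chromosome 4 from 15881264 to 15908064, was the marker with the smallest spread. It was at 177, 99.99, 141, 97.5 and 135 CPM in WT and at 151, 164, 94.1, 159 and 108 CPM in A2A. In APP/PS1 it was at 169, 136, 140, 85.4 and 110 CPM, and in APP/PS1 A2A at 128, 87.2, 83.7 and 117 CPM. All APP/PS1 A2A values lay under the 3 highest values of each other group, but the groups overlapped. The means were 130 ± 32.7 in WT, 135.1 ± 31.8 in A2A, 128.2 ± 31.6 in APP/PS1 and 104 ± 21.9 CPM in APP/PS1 A2A (SD).

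Tdo2, on chromosome 3 from 81957090 to 81976202, was the least abundant marker. It was at 14.1, 6.06, 9.74, 5.98 and 9 CPM in WT and at 8.21, 14.1, 5.33, 8.61 and 11.8 CPM in A2A. In APP/PS1 it was at 10.2, 7.77, 8.24, 4.82 and 7.91 CPM, and in APP/PS1 A2A at 7.34, 5.84, 2.54 and 9.17 CPM. The value of 2.54 CPM in APP/PS1 A2A replicate 3 was the lowest of the study and the highest value of that group lay inside the range of the other 3.

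Dsp, on chromosome 13 from 38151294 to 38198577, was at 78.3, 47.2, 69.5, 34.8 and 93.3 CPM in WT and at 58.6, 71.1, 29.9, 60.3 and 74 CPM in A2A. In APP/PS1 it was at 87.5, 60.8, 53, 55.7 and 69.2 CPM, and in APP/PS1 A2A at 65.9, 51.5, 22 and 74.8 CPM. Dsp was the 1 marker for which APP/PS1 replicate 4 was not the lowest of its group. Lct, on chromosome 1 from 128284756 to 128328318, was at 48.7, 33.8, 58.2, 23.3 and 72.5 CPM in WT and at 48.8, 54.7, 26.5, 46.1 and 61.9 CPM in A2A. In APP/PS1 it was at 74, 44.3, 47.4, 33.5 and 68.1 CPM, and in APP/PS1 A2A at 105, 42.9, 23.9 and 52.4 CPM. For both genes APP/PS1 A2A replicate 3 was the lowest mouse of its group, and all groups overlapped.

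**Figure D1:**
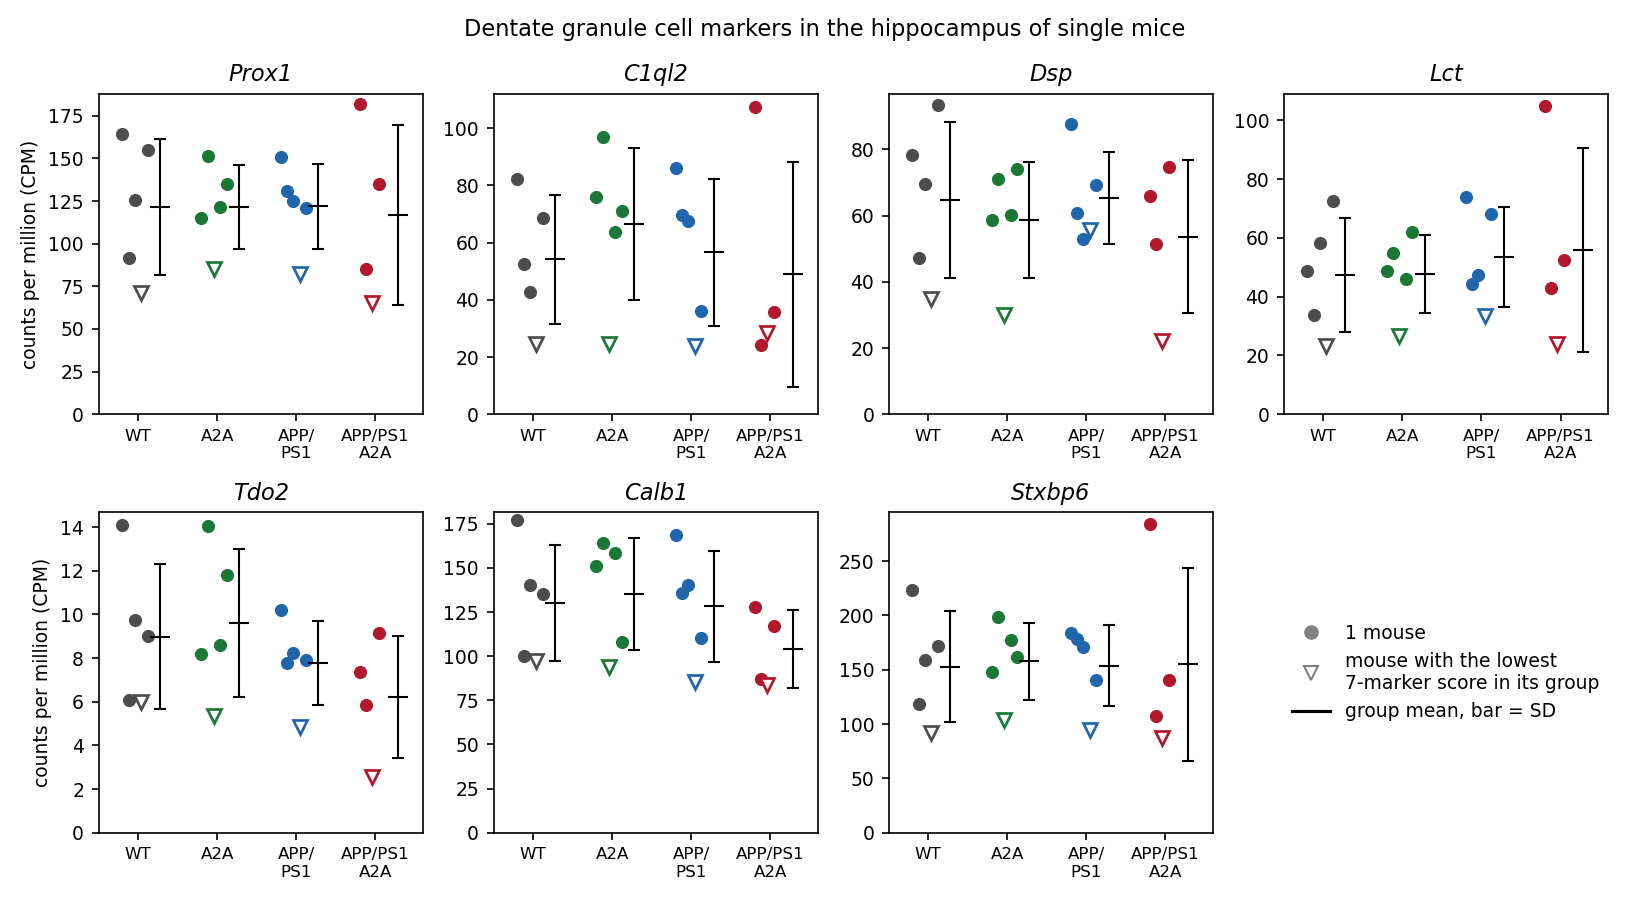
Level of each of the 7 markers in CPM (y axis, from 0) in each mouse of the 4 genotype groups (x axis). Points are mice, the open triangle is the mouse with the lowest 7-marker score in its group, and the line with bars is the group mean with its SD; the triangles are at or near the bottom of every group for nearly every gene, while the group means lie close together.

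The effect of the APP/PS1 genotype without the A2A transgene was asked first. Over the 7 markers the log2 fold change from WT to APP/PS1 ran from -0.20 for Tdo2 to 0.18 for Lct, and 5 markers were above 0 and 2 below. The median was 0.0077, beside 0.0039 over all genes tested. Calbindin loss from granule cells is a known trait of several APP-overexpressing mouse lines. RNA of the hippocampus measures neither calbindin protein nor granule cells alone, as part of the CA1 pyramidal cells also express Calb1. Here Calb1 had a log2 fold change of -0.02 ± 0.20 (SE, edgeR, adjusted p = 1) with a 95% interval from -0.45 to 0.41. Prox1 had 0.0040 ± 0.26, with an interval from -0.55 to 0.56. None of the 7 markers was called at an adjusted p under 0.05 with an absolute log2 fold change over 0.32, where 0.054% of all genes tested were. None had an unadjusted p under 0.05, against 2.26% of all genes, and none had groups without overlap, against 0.421% of all genes. At this number of mice, the data did not exclude differences inside these intervals.

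The A2A transgene alone was compared in the same way. Log2 fold changes from WT to A2A ran from -0.14 for Dsp to 0.30 for C1ql2 (SE 0.44, interval from -0.64 to 1.24), with 6 markers above 0 and a median of 0.047 beside 0.00098 over all genes. No marker was called, and 0% of all genes were. No marker had an unadjusted p under 0.05 (3.44% of all genes) or groups without overlap (1.12% of all genes). Both comparisons used the same WT mice.

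In mice that carried the A2A transgene, the APP/PS1 genotype was set against A2A alone. Of the 7 markers 6 were below 0 and 1, Lct, above (0.23 ± 0.37). Tdo2 had the log2 fold change furthest from 0, at -0.63 ± 0.34 (SE, unadjusted p = 0.0796, adjusted p = 0.716 by edgeR, interval from -1.35 to 0.09). C1ql2 followed at -0.45 ± 0.47, and Calb1 at -0.38 ± 0.22 (unadjusted p = 0.0974, adjusted p = 0.742 by edgeR, interval from -0.84 to 0.083). A two-sided exact permutation test of the mean log2 CPM of the 5 A2A and 4 APP/PS1 A2A mice gave p = 0.19 for Tdo2 and p = 0.175 for Calb1. The median over the markers was -0.13, beside 0.0030 over all genes. No marker was called (0.0648% of all genes), none had an unadjusted p under 0.05 (7.7% of all genes) and none had groups without overlap (2.82% of all genes).

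Single mice decided some of these values. Without APP/PS1 A2A replicate 1, its mouse of highest level, C1ql2 stood at -1.17 ± 0.44 (unadjusted p = 0.0164, adjusted p = 0.371 by edgeR). Tdo2 moved between -0.86 and -0.36 and Calb1 between -0.49 and -0.28 as each mouse was left out, and no marker was called in any of these fits. Without A2A replicate 3, a mouse low in all 7 markers, Tdo2 was at -0.78 (unadjusted p = 0.0324, adjusted p = 0.469 by edgeR) and Calb1 at -0.48 (unadjusted p = 0.0381, adjusted p = 0.493 by edgeR). The number of genes called in this comparison over the whole table rose from 12 to 93 without that mouse.

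With APP/PS1 as the reference, log2 fold changes of the APP/PS1 A2A mice ran from -0.32 for Tdo2 and -0.30 for Calb1 to 0.065 for Lct, with a median of -0.21 beside -0.0062 over all genes and 5 of the 7 markers below 0. No marker was called (0% of all genes), had an unadjusted p under 0.05 (2.87%) or had groups without overlap (0.712%). C1ql2 stood at -0.21 ± 0.47, and at -0.94 without APP/PS1 A2A replicate 1. This comparison shares its APP/PS1 A2A mice with the one before.

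The difference between the APP/PS1 effects with and without the A2A transgene was tested itself. It ran from -0.51 ± 0.64 for C1ql2, -0.42 ± 0.46 for Tdo2 and -0.36 ± 0.30 for Calb1 to 0.056 ± 0.51 for Lct. No marker was called (0% of all genes) and none had an unadjusted p under 0.05 (3.8% of all genes). The intervals of this difference were the widest of the 5 comparisons, from -1.88 to 0.86 for C1ql2 and from -0.99 to 0.27 for Calb1. Without APP/PS1 A2A replicate 1 the difference for C1ql2 was -1.24 (unadjusted p = 0.0429, adjusted p = 0.718 by edgeR).

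**Figure D2:**
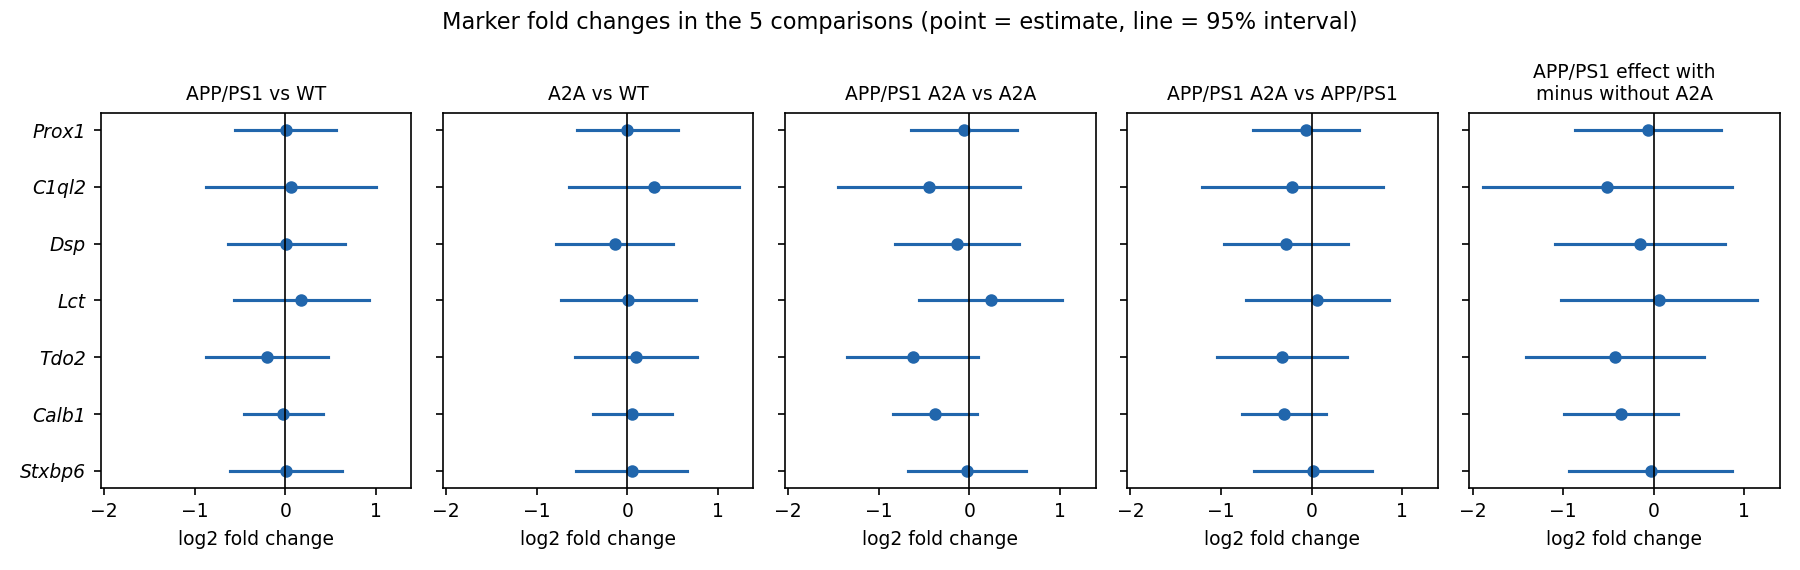
Log2 fold change of each marker (x axis) in the 5 comparisons (panels), from edgeR's fit of 19 mice. Points are estimates and lines 95% intervals; all 35 intervals include 0, and that of C1ql2 is the widest in every panel.

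The spread inside groups set these intervals. From the lowest to the highest of the 19 mice, the level changed 2.11-fold for Calb1, 2.8-fold for Prox1, 3.26-fold for Stxbp6, 4.23-fold for Dsp, 4.46-fold for C1ql2, 4.49-fold for Lct and 5.55-fold for Tdo2. The SD of log2 CPM within groups was 0.355 for Calb1, 0.46 for Prox1 and 0.502 for Stxbp6. It was 0.558 for Dsp, 0.562 for Tdo2, 0.62 for Lct and 0.787 for C1ql2, against a median of 0.15 for the 11917 genes with a mean over 5 CPM. Only 1.24% of those genes spread more than C1ql2, 4.83% more than Prox1 and 9.19% more than Calb1. The share of variance between the group means had a median of 7.76% for the markers, from 1.35% for Stxbp6 to 20.2% for Tdo2. Its median for all genes tested was 12.7%. This share was not corrected for the number of groups and mice, so it lies above 0 without any effect of genotype too.

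The markers varied together between mice. Over the 21 pairs the median Pearson's r of log2 CPM was 0.824 (19 mice), and Spearman's rho ran from 0.558 to 0.905. With 100000 permutations of the mice for each pair, the largest p adjusted over the 21 pairs was 0.00883 for r and 0.0143 for rho, and the smallest p that the permutations can give is 1e-05. Prox1 and Stxbp6 were the closest pair (r = 0.956, rho = 0.905), followed by C1ql2 and Stxbp6 (r = 0.904) and by Prox1 and Lct (r = 0.889). Lct and Calb1 were the least alike (r = 0.582, rho = 0.558, permutation p = 0.00883), followed by C1ql2 and Dsp (r = 0.629).

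The relation was as close within groups as over all mice. With each group's mean removed, r over the 21 pairs ran from 0.641 to 0.956 with a median of 0.825. Without the 2 mice farthest from the median of the first gene of a pair it ran from 0.55 to 0.94, and with any 1 mouse left out no pair was below 0.506. As all pairs come from the same 19 libraries, they are not independent of each other.

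A score was made for each mouse as the mean over the 7 markers of the z-score of log2 CPM, as a description. It was lowest in APP/PS1 A2A replicate 3 (-1.91), WT replicate 4 (-1.32), A2A replicate 3 (-1.25), APP/PS1 replicate 4 (-1.08), APP/PS1 A2A replicate 2 (-0.866) and WT replicate 2 (-0.603). The other 13 mice lay between 0.059 and 1.07, and the highest were APP/PS1 A2A replicate 1 (1.07), WT replicate 1 (1.05), APP/PS1 replicate 1 (0.985) and A2A replicate 2 (0.962). Each of the 4 groups thus held 1 of the 4 lowest and 1 of the 4 highest mice. The largest gap between neighbouring scores was 0.662, between the 6 low mice and the others, and the next largest was 0.59. Within the 13 mice above 0 the median r over the pairs was 0.386, with 19 of 21 pairs above 0, and within the 6 mice below 0 it was 0.545, with 20 of 21 above 0. These ranges were set after the scores had been seen. Since they divide the mice by a score made of the same 7 genes, lower values of r inside them follow from the division itself. The score had r = -0.24 with the log2 total of counts of a library.

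APP/PS1 A2A replicate 1 departed from the common pattern. It ranked 19 of 19 mice, the highest, for Prox1, C1ql2, Lct and Stxbp6, but 11 for Dsp, 10 for Calb1 and 7 for Tdo2. APP/PS1 A2A replicate 3, by contrast, ranked 1 for Prox1, Dsp, Tdo2, Calb1 and Stxbp6, 2 for Lct and 5 for C1ql2. WT replicate 4 and A2A replicate 3 ranked 5 or lower for all 7 markers.

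**Figure D3:**
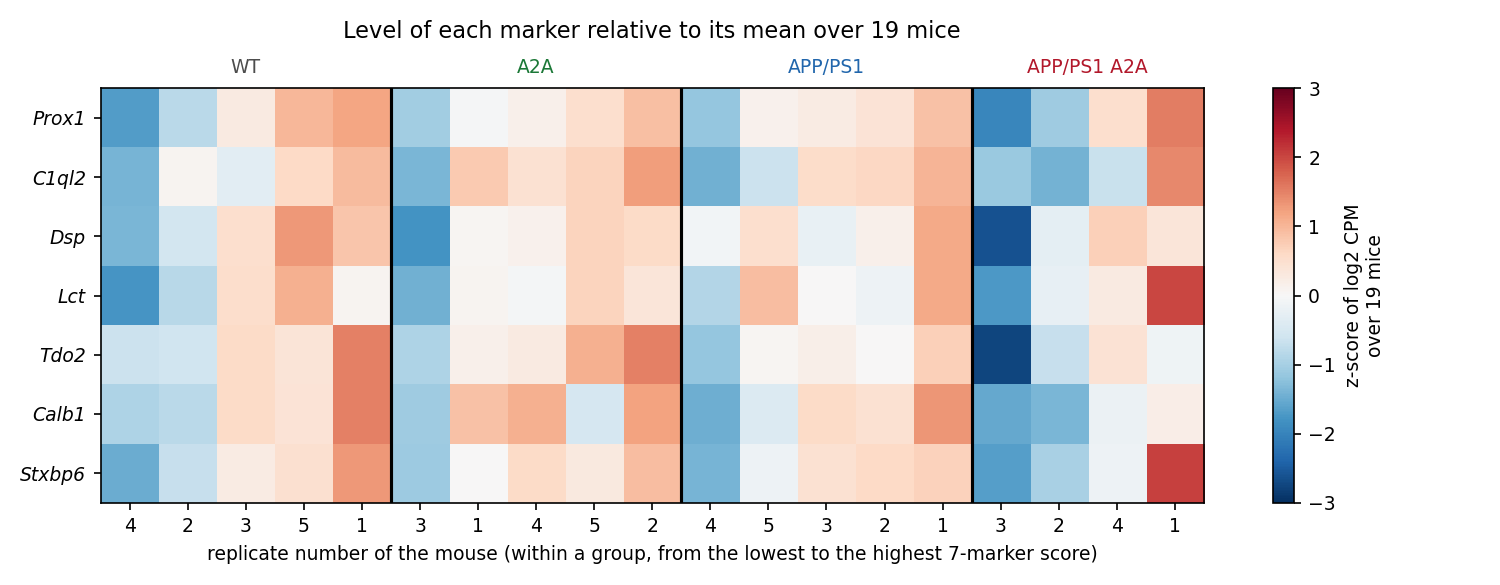
Z-score of log2 CPM over 19 mice (colour, from blue for low to red for high) of the 7 markers (rows) in each mouse (columns), grouped by genotype and ordered by the 7-marker score within a group. The left column of each group, the mouse of lowest score, is blue in nearly all rows, and APP/PS1 A2A replicate 1 at the right edge is red for Prox1, C1ql2, Lct and Stxbp6 but pale for Dsp, Tdo2 and Calb1.

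A list of 14 other genes of dentate granule cells, none of them among the 7, followed the markers closely. The list, as the markers themselves, was chosen with earlier results of these data known. Its mean z-score had r = 0.973 with the 7-marker score over the 19 mice, and 13 of its 14 genes had r over 0.5, with Pcdh8 (0.471) the exception. Npnt, which encodes the matrix protein nephronectin, was closest (r = 0.969). Among single markers Prox1 followed these 14 genes most closely (r = 0.981), then Stxbp6 (0.967), Lct (0.909), C1ql2 (0.885), Dsp (0.833), Calb1 (0.796) and Tdo2 (0.774). For each unit of the mean log2 CPM of the 14 genes, the log2 CPM of C1ql2 moved by 1.94, that of Prox1 by 1.2 and that of Calb1 by 0.825. Like the markers, none of the 14 genes was called in any of the 5 comparisons, and they had a median of 0.043 (log2 fold change) between APP/PS1 and WT and of -0.044 between the A2A groups with and without the APP/PS1 transgenes.

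The markers of neighbouring hippocampal fields moved with the score too, in opposite directions. The score of 8 CA1 pyramidal neuron markers had r = 0.788 with the 7-marker score, and 6 of its genes had r over 0.5. That of 10 CA2 and CA3 markers had r = -0.673, and 6 of its genes had r under -0.5. The summed level of the CA2 and CA3 markers ran from 269.5 to 633 CPM in WT, 272 to 622 CPM in A2A, 271 to 693 CPM in APP/PS1 and 325 to 617 CPM in APP/PS1 A2A. WT replicate 4, lowest of its group in the dentate markers, was highest of its group in the CA2 and CA3 sum, while WT replicate 3, with a 7-marker score of 0.34, had the lowest CA2 and CA3 sum of all mice. The CA2 and CA3 score fell as the 7-marker score rose (Spearman's rho = -0.628, and r = -0.659 with group means removed), but not in exact order. APP/PS1 A2A replicate 3, with the lowest 7-marker score, had a CA2 and CA3 score of 0.413. That score was positive, as the inverse relation has it, but lower than the 1.09 of APP/PS1 replicate 4.

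Genes of tissue at the ventricle, of the cortex and of glia were set beside the markers as well. All 6 ependymal genes had r under -0.5 with the 7-marker score and the list score had r = -0.718. Of 10 choroid plexus genes 9 did, with r = -0.556 for the score. The summed ependymal level ran from 11.6 to 89 CPM in WT, 9.9 to 73.2 in A2A, 18.5 to 106 in APP/PS1 and 10.1 to 78.1 in APP/PS1 A2A. The choroid plexus sum ran from 225 to 8480 CPM in WT, 122 to 7107 in A2A, 231 to 10480 in APP/PS1 and 61.8 to 3940 in APP/PS1 A2A. It was 10480 CPM in APP/PS1 replicate 4, a mouse low in dentate markers, but 824 CPM in A2A replicate 3, which was as low. Cortical layer genes had a score with r = 0.598, 4 of 7 genes over 0.5, and summed levels from 105 to 374 CPM in WT, 119 to 306 in A2A, 107 to 320 in APP/PS1 and 110 to 139.5 in APP/PS1 A2A. Astrocyte genes had r = 0.53 with none of 7 genes over 0.5. Microglial genes had r = 0.319, or 0.719 with group means removed, with 1 of 9 genes over 0.5. The part of these tissues and cells in the marker levels was not tested.

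**Figure D4:**
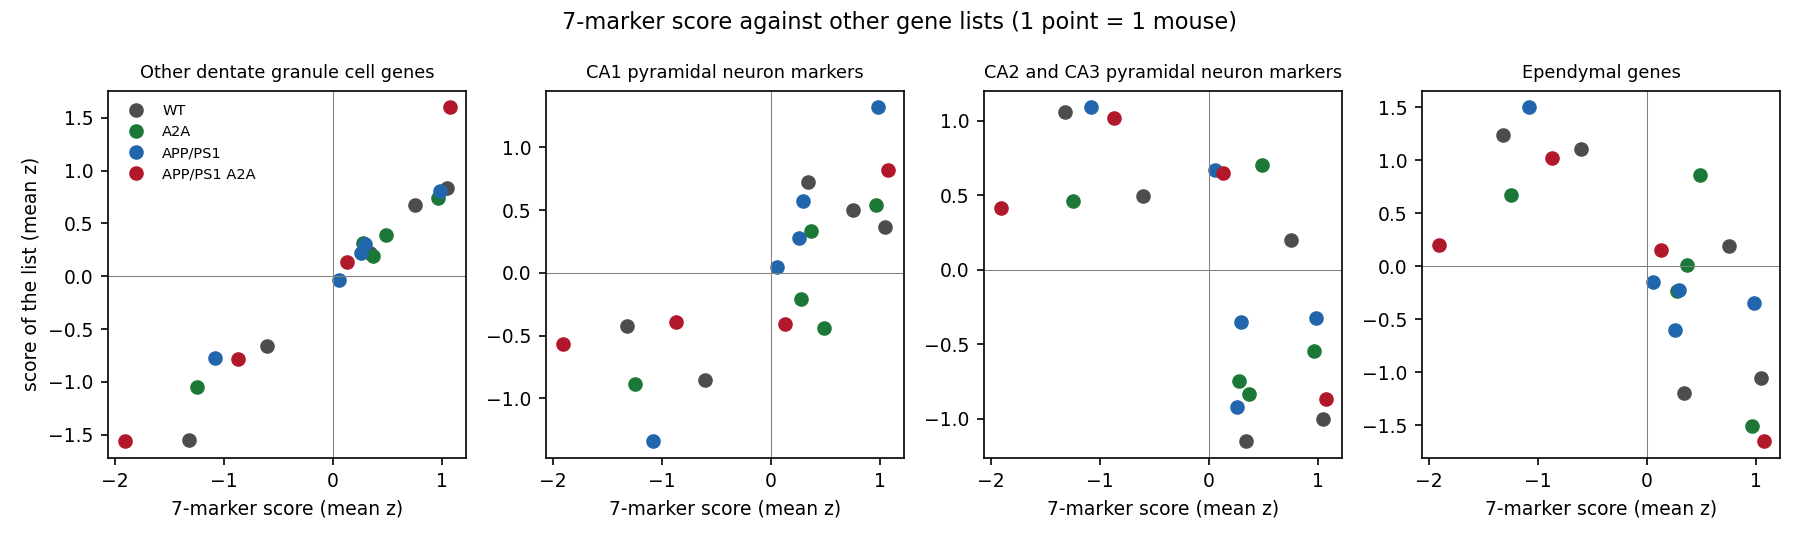
Score of 4 other gene lists (y axes, mean z-score of log2 CPM) against the 7-marker score (x axes, same unit) for 19 mice, coloured by genotype. The other dentate genes lie on a line with the markers (r = 0.973), CA1 markers rise with them (r = 0.788), and CA2 and CA3 markers (r = -0.673) and ependymal genes (r = -0.718) fall.

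Other genes tied to granule cells gave a mixed picture. The score of 10 genes of immature granule cells and neurogenesis had r = 0.271 with the 7-marker score, with 3 genes over 0.5: Neurod1 (0.789), Sox11 (0.714) and Tbr1 (0.632). Dcx, the classical gene of young neurons, had r = -0.375, and Mki67 and Top2a, genes of dividing cells, had r between -0.0483 and 0.0869 at median levels of 1.13 and 1.25 CPM. The 5 mossy cell genes had a score with r = -0.0635, with 1 gene over 0.5 (Csf2rb2, 0.741) and 1 under -0.5 (Calcrl, -0.803). Activity-regulated genes had r = 0.372, with 1 of 12, Nr4a1 (0.53), over 0.5. Of the neuropeptide genes tied to granule cell activity, Pdyn (prodynorphin) followed the markers at r = 0.944. Npy, which is also an interneuron marker, had r = 0.59, whereas r was 0.271 for Penk, 0.211 for Tac2 and 0.00152 for Vgf. These genes were singled out after their values were seen.

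The families to which the markers belong were described in the same way. Dsp had r = 0.835 with the other 6 markers, but no other desmosome gene of 7 reached 0.5 and their score had r = -0.541. Calb1 followed the markers, while of 13 other calcium-buffer genes 2 had r over 0.5, Pvalb (0.52) and Necab3 (0.628), and Necab2 had -0.797. In the C1q-like family C1ql3, which like C1ql2 is made in granule cells and secreted at mossy fibre synapses, had r = 0.875. C1ql1 had 0.137, and among kainate receptor subunits Grik2 had 0.587 and Grik4, a gene of CA3 neurons, -0.686. None of the genes of these families was called in any comparison.

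The genes most like the markers over mice were taken from the 18512 tested genes of distinct symbol outside the 7. The 10 highest were Npnt (0.969), Dgkh (0.958), Jph1 (0.957), Ccdc85a (0.954), Mkx (0.947), Pitpnm2 (0.947), Pdyn (0.944), Bcl11b (0.941), Il27ra (0.938) and Susd1 (0.935), by Pearson's r with the score over 19 mice. Dgkh encodes a diacylglycerol kinase, Jph1 a junctophilin, Mkx and Bcl11b transcription factors, and Pitpnm2 a phosphatidylinositol transfer protein. The lowest were Igfbp3 (-0.92), Sulf2 (-0.851), Tubb4b (-0.849), Plagl1 (-0.844) and Idh1 (-0.843). The list shares the libraries of the score, and of all genes 190 (1.03%) had r over 0.8 and 39 (0.211%) under -0.8, with a median of 0.036. With group means removed the 10 highest kept r between 0.945 and 0.971.

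Neighbouring genes on the chromosome were looked at for reads that could be shared. Mcm6, a subunit of the replication helicase, lies 3272 bases from Lct on the same strand. It had a mean of 17.9 CPM and r = 0.851 with Lct over mice. Ubxn4 on the other side of Lct had r = 0.0784 with Lct. Snrnp48 beside Dsp (0.276), Ctso beside Tdo2 (-0.182) and Decr1 beside Calb1 (0.352) followed the marker they lie beside less than Mcm6 followed Lct. Reads of Mcm6 and Lct that run between the genes were not examined.

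The comparisons were run again with the mean z-score of the 14 other dentate genes as a term in the fit, chosen after the data had been seen. The standard error of Prox1 in APP/PS1 against WT was 0.26 without the term and 0.0586 with it, and its log2 fold change was 0.0040 and -0.052. In APP/PS1 A2A against A2A, Prox1 was at -0.012 ± 0.0623, Stxbp6 at -0.0071 ± 0.0844 and Dsp at -0.012 ± 0.183. Prox1 (r = 0.981) and Stxbp6 (r = 0.967) followed the 14 genes so closely that values near 0 with the term follow from the term itself. The term also takes up any difference that granule cell genes share, so this fit cannot show whether such a difference exists. Tdo2 was at -0.50 ± 0.206 (unadjusted p = 0.0265, adjusted p = 0.49 by edgeR) and Calb1 at -0.29 ± 0.127 (unadjusted p = 0.0353, adjusted p = 0.534 by edgeR), where 8.48% of all genes had an unadjusted p under 0.05. C1ql2 was at -0.37 ± 0.221 and Lct at 0.26 ± 0.153. No marker was called in any comparison with the term. The genes called over the whole table were 10 in APP/PS1 against WT and 16 in APP/PS1 A2A against A2A, and included all 10 and all 12 called without it.

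**Figure D5:**
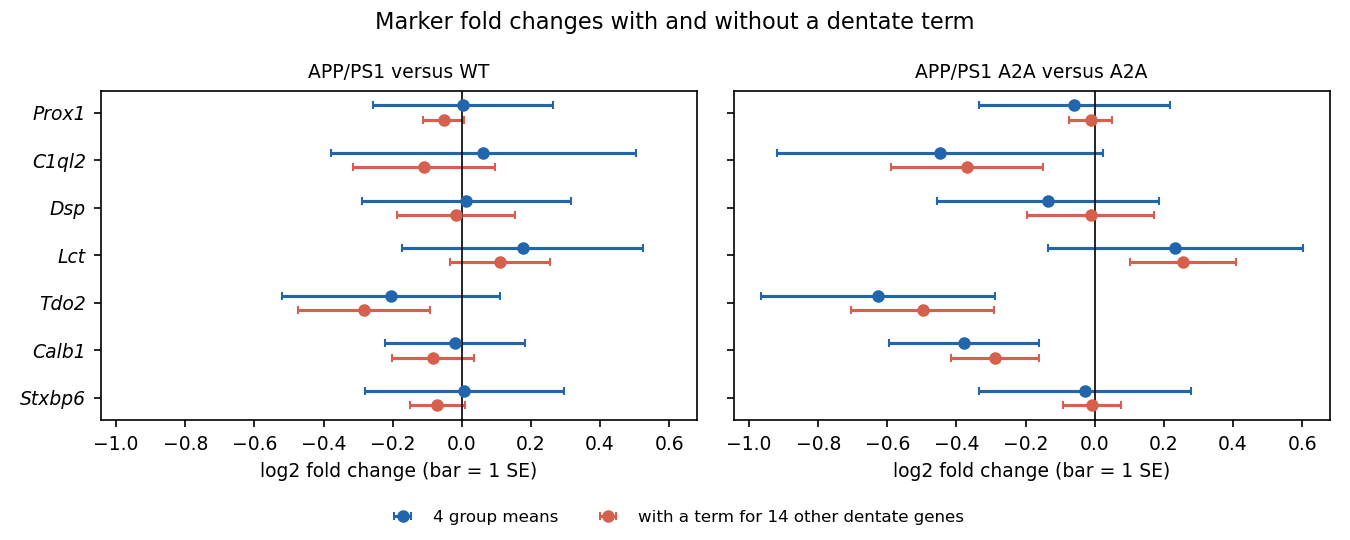
Log2 fold change (x axis, bar = 1 SE) of the 7 markers in APP/PS1 against WT and in APP/PS1 A2A against A2A, from the fit of 4 group means (blue) and with a term for 14 other dentate granule cell genes (red). The bars are shorter with the term for every marker, and Tdo2 (-0.50), C1ql2 (-0.37) and Calb1 (-0.29) remain the lowest in the right panel. Prox1, which had r = 0.981 with the 14 genes of the term, lies at -0.012.

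The level of each marker was also set against Prox1 within the same mouse, again as an addition after seeing the data. The log2 ratio of Stxbp6 to Prox1 was 0.33 ± 0.11 in WT, 0.37 ± 0.11 in A2A, 0.32 ± 0.12 in APP/PS1 and 0.37 ± 0.24 in APP/PS1 A2A (SD). The ratio of Tdo2 to Prox1 was -3.76 ± 0.24, -3.71 ± 0.23, -3.97 ± 0.095 and -4.25 ± 0.45 in the same order. Between APP/PS1 A2A and A2A mice this log2 ratio differed by -0.54 for Tdo2 (two-sided exact permutation test, p = 0.0794). It differed by -0.22 for Calb1 (exact p = 0.349) and by -0.45 for C1ql2 (exact p = 0.206). None of the 24 differences of a ratio between groups reached an exact p under 0.05.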

How the data were processed

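Hippocampal RNA of 19 mice, 1 library each, was analysed as 4 genotype groups taken from the labels, with replicates numbered in accession order. The authors sequenced stranded libraries of polyadenylated RNA, aligned reads to mm10 with STAR 2.5.3a and deposited raw counts per gene made with HTSeq 0.6.1p1 (versions per the submitters' processing notes). The fold changes and p-values that the authors deposited were not used. Genes kept by edgeR's filter (minimum count 10) were fitted with edgeR 4.0.16 (TMM, 4 group means, quasi-likelihood test, Benjamini-Hochberg over 18529 genes), checked on simulated data. Log2 CPM used a prior count of 2. Correlations used 100000 permutations of the mice, and single values two-sided exact permutation tests. That replicates are separate mice follows from the labels. Promoter windows came from RefSeq, exon lengths from GENCODE on the same build. Alternatives were DESeq2 1.42.0, limma-voom (limma 3.58.1), other size factors and filters, only the compared groups, 1 surrogate variable (sva 3.50.0) and leaving out each mouse, and 2 alternatives were added after seeing the data. The 7 markers and the 22 other gene lists were chosen with earlier results of these data known. Genes outside the lists were named by the 10 highest and 5 lowest r with the markers.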

Additional observations from a re-analysis of the deposited data

Results flagged for a closer look

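C1ql2 in APP/PS1 A2A replicate 1 stood apart from the other mice of its group. Its level was 107 CPM, while the other 3 APP/PS1 A2A mice had 24.2, 28.3 and 35.8 CPM. The gap to the nearest mouse was 0.861 of the range of the group, over Dixon's critical ratio of 0.829 for 4 mice. It was the 1 group flagged in this way among 28 groups of a marker and a genotype, and chance flags about 1 in 20 groups.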

How the results depend on the processing

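No paired analysis was possible because the labels give no replicate numbers that mice of different groups share.

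No marker was called under any alternative (139 counts, each 0), and the smallest adjusted p of a marker, apart from the fit with the dentate term, was 0.371 by edgeR, for C1ql2 without APP/PS1 A2A replicate 1. The median r over the 21 marker pairs was 0.824, 0.831 with library totals, 0.825 with group means removed and 0.783 to 0.844 with each mouse left out, and the smallest exact p of a marker's level between groups, 0.175, was the same with a prior count of 0.5. Counts of called genes over the whole table moved more. In APP/PS1 against WT (10) they were 22 with DESeq2, 4 with at least 10 counts in every mouse, 5 with only the compared groups and 8 to 18 with each mouse left out, the highest without APP/PS1 replicate 4. In APP/PS1 A2A against A2A (12) they were 159 with DESeq2, 6 with at least 10 counts in every mouse, 21 with 1 surrogate variable and 10 to 93 with each mouse left out. DESeq2 called 1 gene in A2A against WT and 1 in the difference of the APP/PS1 effects, where edgeR called 0. The cause was not tested.

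Of 973 marker fold changes under an alternative 843 had the sign of the fit reported and 130 the other sign, in 25 of 35 results, all with an absolute log2 fold change of 0.296 or less in the fit reported. With DESeq2 such values were Prox1 -0.0054 in A2A against WT. With limma-voom such values were Lct -0.082, Stxbp6 -0.097 in APP/PS1 A2A against APP/PS1 and Lct -0.14 in the difference of the APP/PS1 effects. With RLE size factors such values were Prox1 -0.0053 in A2A against WT. With library totals such values were Prox1 -0.0071, Stxbp6 -0.0019 in APP/PS1 against WT. With at least 10 counts in every mouse such values were Prox1 -0.0016 in A2A against WT. With only the compared groups in the fit such values were Prox1 -0.0036, Stxbp6 -0.00031 in APP/PS1 against WT and Prox1 -0.00047 in A2A against WT. With 1 surrogate variable such values were Prox1 -0.032, C1ql2 -0.10, Stxbp6 -0.035 in APP/PS1 against WT, Prox1 -0.13, C1ql2 -0.0099, Lct -0.15, Tdo2 -0.033, Calb1 -0.063, Stxbp6 -0.11 in A2A against WT, Lct -0.045, Stxbp6 -0.11 in APP/PS1 A2A against APP/PS1 and Prox1 0.00097, Stxbp6 0.0056 in the difference of the APP/PS1 effects. With the term for other dentate genes such values were Prox1 -0.052, C1ql2 -0.11, Dsp -0.017, Stxbp6 -0.070 in APP/PS1 against WT, Prox1 -0.059, Lct -0.083, Tdo2 -0.0083, Calb1 -0.0025, Stxbp6 -0.033 in A2A against WT and Prox1 0.041, Dsp 0.0057, Stxbp6 0.063 in the difference of the APP/PS1 effects. With each mouse left out, the log2 fold changes that took the other sign ranged as follows. In APP/PS1 against WT these ranges were Prox1 -0.14 to 0.14, C1ql2 -0.15 to 0.26, Dsp -0.14 to 0.18, Tdo2 -0.33 to 0.018, Calb1 -0.15 to 0.12, Stxbp6 -0.13 to 0.18. In A2A against WT these ranges were Prox1 -0.14 to 0.13, Dsp -0.29 to 0.033, Lct -0.16 to 0.22, Tdo2 -0.081 to 0.32, Calb1 -0.031 to 0.19, Stxbp6 -0.091 to 0.22. In APP/PS1 A2A against A2A these ranges were Prox1 -0.35 to 0.15, Dsp -0.33 to 0.13, Lct -0.25 to 0.50, Stxbp6 -0.49 to 0.18. In APP/PS1 A2A against APP/PS1 these ranges were Prox1 -0.36 to 0.14, C1ql2 -0.94 to 0.013, Lct -0.43 to 0.32, Stxbp6 -0.46 to 0.21. In the difference of the APP/PS1 effects these ranges were Prox1 -0.36 to 0.14, Dsp -0.34 to 0.12, Lct -0.43 to 0.32, Stxbp6 -0.50 to 0.17. The direction of these differences was therefore not settled by the data. The 10 results of stable sign included Tdo2 and Calb1 in both comparisons of APP/PS1 A2A mice and in the difference of effects.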
